A study of Mus musculus with 2 samples.

Results

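Carboxylesterases are serine hydrolases of the endoplasmic reticulum that split ester, thioester and amide bonds, and hepatocytes are among the cells that hold most of them. The Ces1 enzymes include the main hydrolases that release stored triacylglycerol for lipoprotein assembly, the Ces2 enzymes hydrolyse acylglycerols and many ester drugs, and the Ces3 enzymes are abundant microsomal esterases of mouse liver. Hepatocytes also differ by their place in the liver lobule, from the portal tract, where blood enters (zone 1), to the central vein, where it leaves (zone 3), and many enzymes of drug and lipid metabolism follow that axis.

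The 10 carboxylesterase genes described here are Ces1b, Ces1d, Ces1e, Ces1f, Ces1g, Ces2a, Ces2c, Ces2e, Ces3a and Ces3b, out of 19073 measured features, 19 of which were Ces genes. They were chosen by family name with earlier results of these same data known, in which Ces2c was among the leading genes of a cluster made almost wholly of Tom+ cells. The Tom+ against Tom- difference of Ces2c was therefore selected on, and its values are a description.

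Both groups came from livers of male p16-Tom mice, which carry a tamoxifen-dependent Cre (CreERT2) at the p16 gene and a lox-stop-lox tdTomato reporter at the R26 locus, so that cells transcribing p16 at the time of tamoxifen keep a red label. All mice were of C57BL/6 background and had received carbon tetrachloride (CCl4), a toxin that injures central hepatocytes, every 3 days for 4 weeks, and tamoxifen. Fixed and dissociated cells positive for a nuclear and a mitochondrial dye were sorted into p16low (Tom-) and p16high (Tom+) hepatocytes. Each group is 1 library, the number and age of the mice behind it were not given in the sources used here, and no fraction of untreated mice was analysed here, so every difference below lies between 2 libraries and has no replicate check and no test.

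Unique molecular identifiers (UMIs) were counted by probe hybridisation. After filtering, 11406 Tom- and 10182 Tom+ hepatocytes remained, with 404162898 and 403455946 UMIs and medians of 31995.5 and 35131 UMIs per cell. Levels are given in CPM, the share of all UMIs summed over a set of cells that fell on a gene, in parts per 1e6, with exact 95% Poisson intervals that cover counting error only. The reporter matched the sort, with tdTomato between 64.4 and 119 CPM in the Tom- library and between 685 and 996 CPM in the Tom+ library over all positions. Alb, which defines hepatocytes, ranged from 83279 to 133657 CPM. Cell clusters with few genes per cell had been left out, and the largest of them was mostly Tom- (4244 Tom- and 423 Tom+ cells). Its Alb, at 117923 CPM, lay within the range of the kept hepatocytes. The kept cells are therefore not an even sample of both libraries. Keeping the clusters with few genes was among the alternative settings described below. The libraries shared 503 barcodes, 2.17% of the Tom- and 3.08% of the Tom+ barcodes.

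Each hepatocyte was placed along the lobule by a score from 16 central and 16 portal marker genes, none of them a carboxylesterase, and the cells were divided into 5 bins from portal (bin 1) to central (bin 5). The Tom- cells lay toward the portal end, with 28.2% in bin 1 and 10.1% in bin 5, and the Tom+ cells toward the central end, with 11.8% in bin 1 and 29.9% in bin 5. Of all hepatocytes, 21.9% had a score within 0.02 of a boundary between bins. Since the libraries differed in makeup by position, a gene that follows the lobule differs between them even where cells at one position do not.

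The 19 family genes lie in 2 blocks on mouse chromosome 8 (mm10). The block of Ces1 genes and Ces5a, all on the minus strand, covers chr8:93020214-93535830, and that of Ces2, Ces3 and Ces4a genes, all on the plus strand, covers chr8:104734003-105150109, 11.2 Mb further on. Each block holds 5 of the 10 genes. Ces2c spans chr8:104847068-104854483, Ces3a chr8:105048601-105058413 and Ces3b chr8:105083753-105093929.

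Because the assay reads short targets, the likeness of the genes bears on the values. The coding sequences are 1674 to 1713 bases long, and pairs within Ces1, Ces2 or Ces3 had 71.8% to 95.3% identical bases, against 53.9% to 58.6% for pairs between these groups. The stretch around the codon of the active-site serine shows the difference between and within the groups. Below are 51 coding bases of a member of each group and of close relatives, 5′ to 3′, with the serine codon in capitals (GENCODE M21, mm10).

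Ces1d: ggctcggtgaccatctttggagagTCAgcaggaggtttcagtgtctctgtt
Ces1g: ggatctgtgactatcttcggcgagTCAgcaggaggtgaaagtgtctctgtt
Ces2c: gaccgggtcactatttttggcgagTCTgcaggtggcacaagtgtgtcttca
Ces2b: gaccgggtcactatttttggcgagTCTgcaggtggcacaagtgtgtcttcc
Ces2e: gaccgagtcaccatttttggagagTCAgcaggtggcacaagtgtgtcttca
Ces3a: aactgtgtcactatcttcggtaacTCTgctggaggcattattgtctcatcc
Ces3b: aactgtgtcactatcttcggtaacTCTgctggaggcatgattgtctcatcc

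In this stretch Ces2c differed from Ces2b at 1 base, from Ces2e at 4 and from Ces1d at 17, and Ces3a differed from Ces3b at 1. Over the whole coding sequence, Ces3a and Ces3b were the closest pair, with 95.3% identity and 194 bases in the longest run without a difference. Ces2c was closest to Ces2b (91.3%), a gene that is not among the 10, and next among the 10 to Ces2e (83.6%).

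**Figure D1:**
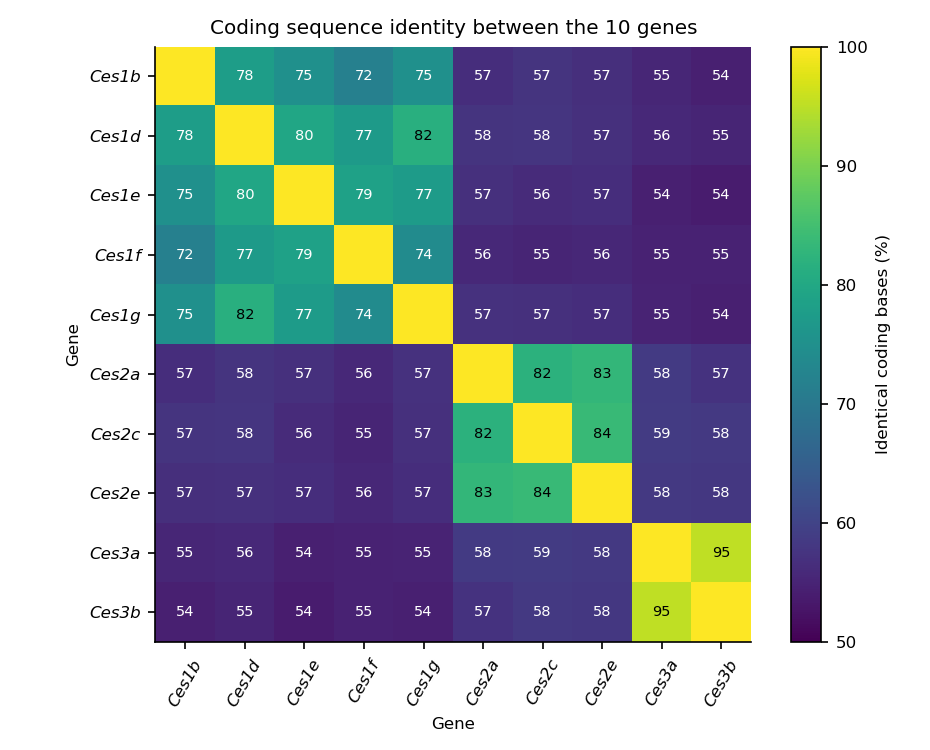
Percent of identical coding bases between each pair of the 10 genes (both axes list the genes, colour and number give the percent, after global alignment). Identity is highest for Ces3a with Ces3b (95.3%), and pairs from different groups stay at or below 58.6%.

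A probe pair covers about 50 bases, so every 50-base window of a coding sequence was looked up in the transcripts of the other Ces genes. Of the windows of Ces2c, 47.2% occurred exactly and 85.4% with at most 3 mismatches in another Ces transcript, most often that of the pseudogene Ces2d-ps, which was not a measured feature. For Ces3a and Ces3b the share within 3 mismatches was 74.8% each, all of it through the other gene of the pair. Ces1b shared 49.6% of its windows, mainly with Ces1c, and the remaining members shared between 14.6% (Ces1f) and 36.6% (Ces2e). The target positions of the probes were not used here, so how many reads could cross between relatives was not tested. Ces2b itself had 12 UMIs in the Tom- and 19 in the Tom+ hepatocytes, against 4694 and 15593 for Ces2c.

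The stretches in which the closest pairs differ most are shown because a probe there would tell them apart. Each is 50 coding bases, 5′ to 3′, with differing bases in capitals, 13 between Ces3a and Ces3b and 15 between Ces2c and Ces2b.

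Ces3a: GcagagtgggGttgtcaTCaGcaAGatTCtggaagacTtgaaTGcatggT
Ces3b: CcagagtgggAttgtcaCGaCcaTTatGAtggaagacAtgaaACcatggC
Ces2c: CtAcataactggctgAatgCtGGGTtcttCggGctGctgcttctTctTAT
Ces2b: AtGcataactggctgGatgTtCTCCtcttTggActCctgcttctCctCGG

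The first question was how the 10 genes are laid out along the lobule. In the Tom- library 4 genes were at least 2-fold higher in the central than in the portal bin (Ces2c, Ces1g, Ces1d and Ces1b), 1 was at least 2-fold lower (Ces3b) and 5 lay between. Over the 7968 genes compared in that library, 3.74% were higher and 2.69% lower at 2-fold. The same 4 genes and the same 1 gene passed in the Tom+ library, where 4.33% and 2.8% of 8035 genes did. Of these, Ces1b lay at the limit and passed under only 19 of 25 alternative settings in Tom- and 14 in Tom+ cells. The median central over portal difference of the 10 genes was log2 0.31 in Tom- and 0.42 in Tom+ cells, and that of all genes 0.14 and 0.20. All 10 genes passed the minimum of 10 CPM.

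**Figure D2:**
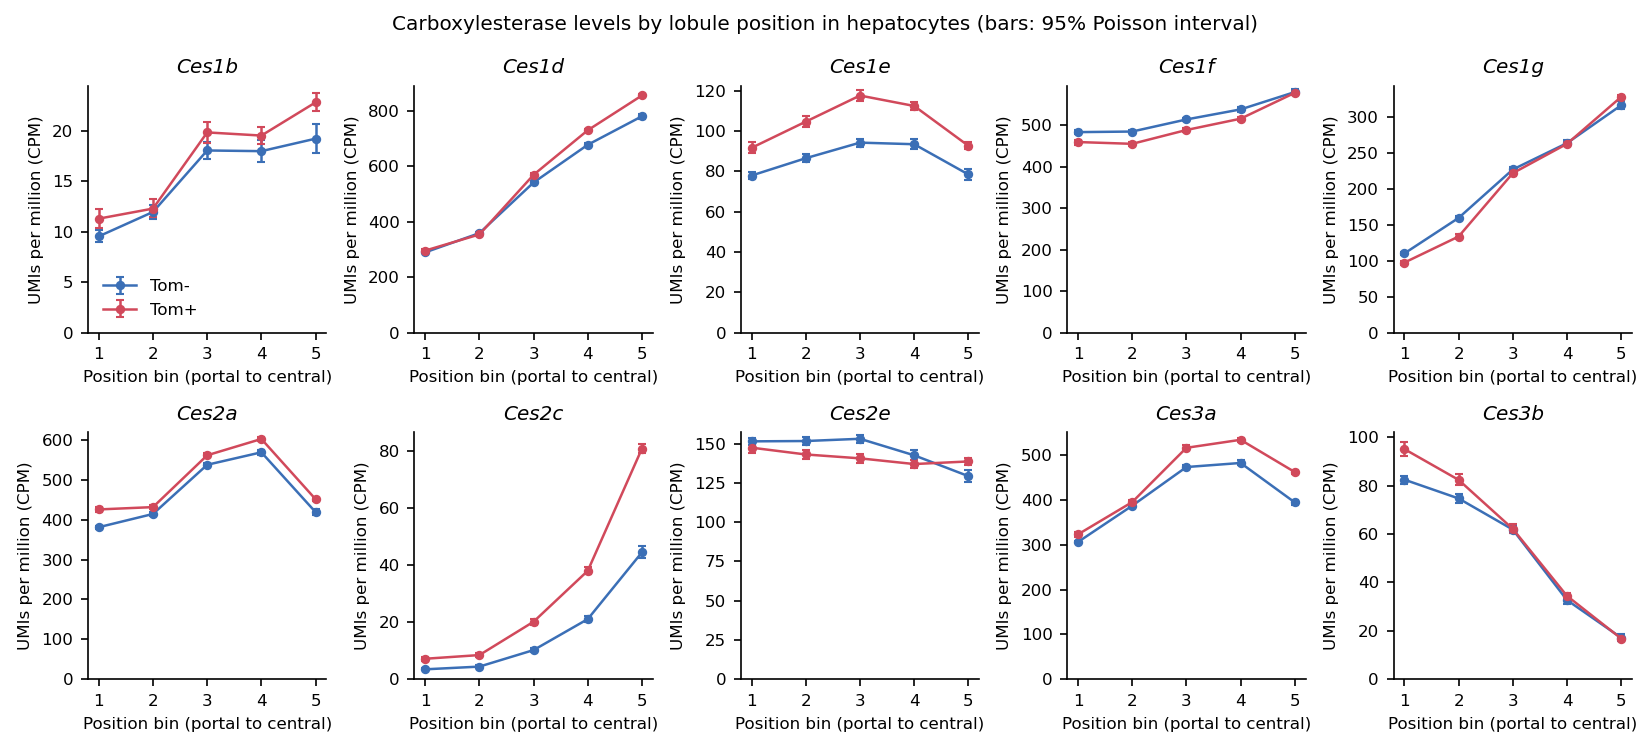
CPM of each gene (vertical axis, from 0) in the 5 position bins (horizontal axis, portal to central) in Tom- (blue) and Tom+ (red) hepatocytes, with 95% Poisson intervals. Ces2c, Ces1d, Ces1g and Ces1b rise toward the central bin in both libraries, Ces3b falls, and the red line of Ces2c lies above the blue one in each bin (80.8 against 44.4 CPM in bin 5).

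Ces2c, a triacylglycerol and diacylglycerol hydrolase, had the steepest central rise. In Tom- cells it measured 3.42, 4.38, 10.2, 21.0 and 44.4 CPM from bin 1 to bin 5, and in Tom+ cells 7.13, 8.42, 20.1, 38.0 and 80.8 CPM. The central bin was 13.0-fold above the portal bin in the Tom- library (log2 interval 3.54 to 3.86) and 11.3-fold above it in the Tom+ library (log2 interval 3.35 to 3.66). Of the neighbouring bins, those of bins 1 and 2 of the Tom+ library had overlapping intervals and no others did. A cluster set aside for its endothelial markers read 5.08 CPM in Tom- and 10.1 CPM in Tom+ cells, above both portal levels, but its Alb, at 133804 CPM, was as high as in hepatocytes, so it held hepatocyte RNA, the source of which was not tested. How much of the portal signal is background was not tested.

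Ces1g and Ces1d also rose at every step. Ces1d, the triacylglycerol hydrolase that mobilises stored lipid for very low density lipoprotein, went from 289 to 780 CPM in Tom- and from 296 to 855 CPM in Tom+ cells, 2.70-fold and 2.89-fold. Ces1g, another triacylglycerol hydrolase, went from 110 to 316 CPM and from 97.2 to 327 CPM, 2.87-fold and 3.37-fold. For both genes no neighbouring bins had overlapping intervals in either library.

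Ces1b sat at the limit, 2.01-fold in Tom- (9.53 to 19.2 CPM) and 2.02-fold in Tom+ cells (11.3 to 22.8 CPM). Over all hepatocytes it had 14.3 and 18.4 CPM. Ces1c, with which it shared most windows, had 2583 and 2823 CPM and was itself higher centrally, 1.72-fold and 1.84-fold. Whether reads of Ces1c add to the Ces1b gradient was not tested. The levels of Ces1b in bins 3 and 4 could not be told apart by counting error in either library. The same held for bins 3 and 5 in Tom- and for bins 1 and 2 in Tom+ cells. The next gene in order, well under the limit, was Ces3a, 1.29-fold and 1.43-fold, which was highest in bin 4 at 483 and 535 CPM.

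Ces3b ran the other way. It measured 82.5, 74.7, 61.9, 32.7 and 17.1 CPM from bin 1 to bin 5 in Tom- cells and 95.2, 82.4, 62.2, 34.4 and 16.8 CPM in Tom+ cells, a portal excess of 4.83-fold and 5.67-fold. Thus the closest pair of the family, Ces3a and Ces3b, read opposite gradients (log2 0.37 and -2.27 in Tom- cells, 0.52 and -2.50 in Tom+ cells) although 74.8% of their windows match within 3 bases.

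The other members varied less with position. Ces2a, which hydrolyses acylglycerols and drugs, peaked in bin 4 at 569 CPM in Tom- and 603 CPM in Tom+ cells and fell to 419 and 452 CPM in bin 5. Ces1e, which holds β-glucuronidase in the endoplasmic reticulum, peaked in bin 3 at 94.3 and 118 CPM, and its end bins had overlapping intervals in both libraries. Ces1f, also a lipid hydrolase, was higher centrally by log2 0.26 in Tom- and 0.33 in Tom+ cells, and Ces2e, an intestinal and hepatic esterase, was lower centrally by 0.23 and 0.09 on the log2 scale. With the median gradient of all genes subtracted, these came to 0.12 and 0.13 for Ces1f and to -0.37 and -0.29 for Ces2e.

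The promoters of the gene with the steepest central rise, of the portal gene and of Ces1g, a second central gene, are shown as those with the steepest gradients among the genes in the promoter table. RefSeq promoters (GRCm38.p6, 250 bases before to 50 after the start site) were held for 7 of the 10 genes. Matches to 7 motifs, searched on both strands, are in capitals.

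Ces2c (chr8:104846818-104847117, plus strand): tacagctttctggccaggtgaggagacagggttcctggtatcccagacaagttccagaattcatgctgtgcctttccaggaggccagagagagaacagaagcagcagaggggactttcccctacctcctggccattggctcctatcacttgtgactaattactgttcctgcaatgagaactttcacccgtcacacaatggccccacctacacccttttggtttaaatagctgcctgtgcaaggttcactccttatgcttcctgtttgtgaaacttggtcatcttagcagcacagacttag
Ces3b (chr8:105083505-105083804, plus strand): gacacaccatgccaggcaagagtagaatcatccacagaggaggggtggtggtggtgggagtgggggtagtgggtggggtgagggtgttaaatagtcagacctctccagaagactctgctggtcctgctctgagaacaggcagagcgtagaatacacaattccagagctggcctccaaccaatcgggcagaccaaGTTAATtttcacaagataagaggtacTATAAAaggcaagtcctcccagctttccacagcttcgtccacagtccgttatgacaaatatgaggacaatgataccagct
Ces1g (chr8:93337160-93337459, minus strand): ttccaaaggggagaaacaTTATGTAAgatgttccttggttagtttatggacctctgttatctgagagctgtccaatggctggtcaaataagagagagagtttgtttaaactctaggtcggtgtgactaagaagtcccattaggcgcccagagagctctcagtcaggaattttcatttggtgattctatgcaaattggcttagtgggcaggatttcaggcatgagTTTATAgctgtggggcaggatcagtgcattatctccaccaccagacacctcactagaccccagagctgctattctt

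None of the 7 motifs was found in the Ces2c window. The HNF1 core letters (GTTAAT) occurred in Ces3b, beginning 56 bases before the start site, and in 7.1% of the 32851 promoters in the table. The TATA box letters (TATAAA) occurred in Ces3b, beginning 30 bases before the start site, and on either strand in 13.6% of all promoters. In Ces1g they lay on the opposite strand, where the window reads TTTATA, beginning 26 bases before the start site. The D-box (TTATGNAA), the site of Dbp and its relatives, occurred in Ces1b, Ces1e and Ces1g and in 3.38% of all promoters.

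C/EBP-like letters (TTGCNNAA) occurred in Ces1b, Ces2a and Ces2e and in 10.8% of all promoters, and in Ces1b a match was also a D-box on the other strand. The nuclear receptor core letters (AGGTCA) occurred in Ces2a and in 16.3% of all promoters. The TCF/LEF motif (CTTTGAT, 3.73% of all) and the E-box (CACGTG, 7.15% of all) were found in none of the 7 windows. A match says only that the letters are there.

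The second question was whether Tom+ and Tom- cells differed at the same lobule position. The ratio at matched position is the mean over the 5 bins of log2 Tom+ over Tom- CPM, and a gene was counted past log2 0.3, the fold used in the study's methods. By that count 1 of the 10 genes, Ces2c, was higher in Tom+ cells, none was lower and 9 lay between. Over all 7808 genes compared, 2.69% were higher and 0.589% lower, and since the family was chosen with this contrast known, nothing is read from its share. The median of the 10 genes was 0.09 and that of all genes -0.00.

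Ces2c was 1.92-fold higher in Tom+ cells at matched position (log2 0.94, interval 0.88 to 1.00), at rank 4 of the 7808 genes. The bins gave 1.06, 0.94, 0.98, 0.85 and 0.86 from portal to central, with counting intervals that begin at 0.76 or higher. Ces2c was chosen with this contrast known, so its rank and these ratios are a description. The portal bins had the lowest levels, below 10 CPM in both libraries, and whether free RNA adds to the difference there was not tested. Bins 3 to 5 ran from 10.2 to 44.4 CPM in Tom- and from 20.1 to 80.8 CPM in Tom+ cells. The cells within a bin were still not fully alike in position. Median scores were higher in Tom+ than in Tom- cells in bin 1 (0.0714 against 0.0634) and bin 5 (0.919 against 0.899). Bins 3 and 4 had the same order, and bin 2 the opposite (0.139 in Tom+ against 0.144 in Tom- cells). The summed portal markers were higher in Tom+ cells in bins 1 and 2 and lower in bins 3 to 5. The central markers Oat and Glul, which entered the score, were higher in Tom+ cells at matched position by log2 0.87 and 0.67. Cyp2e1 differed by 0.15, and these are examples from the 16 central markers. With 20 bins in place of 5 the Ces2c ratio was 0.88, and without the clusters that were at least 90% Tom+, described below, it was 0.56.

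Pooling all positions gave another picture. Over all hepatocytes Ces2c was higher in the Tom+ library by log2 1.73, Ces1d by 0.42 and Ces1b by 0.37, and Ces3b was lower by 0.34 on the log2 scale. At matched position Ces1d came to 0.06 (468 and 625 CPM pooled) and Ces1b to 0.16, and Ces3b changed sign to 0.08. Without the clusters that were at least 90% Tom+, Ces3b was -0.11 and Ces1b -0.10 at matched position, so the signs of both rest on those cells. Ces1g went from 0.29 pooled to -0.08 matched.

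**Figure D3:**
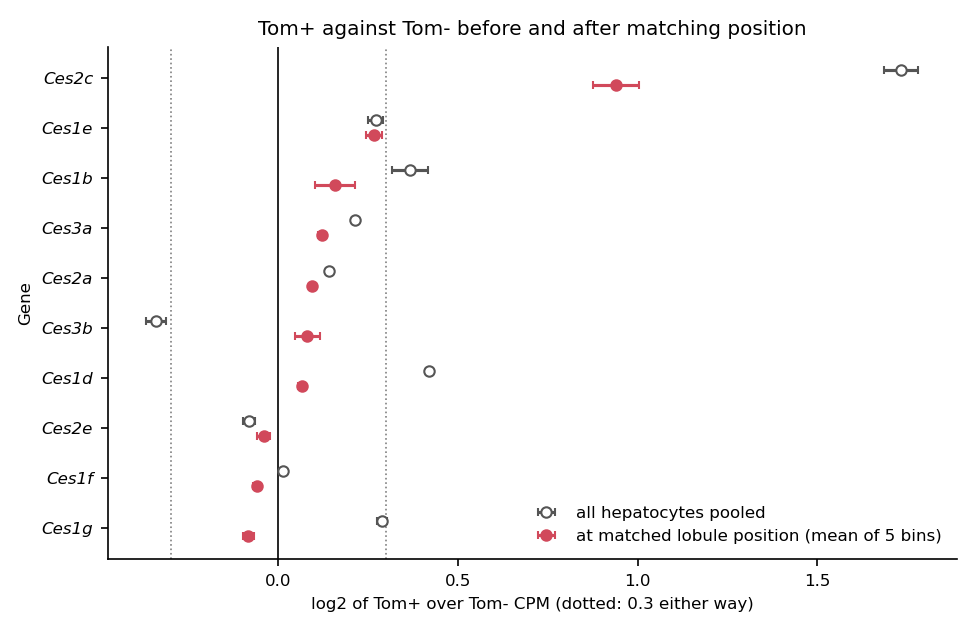
log2 of Tom+ over Tom- CPM (horizontal axis) for each gene (vertical axis), over all hepatocytes (open circles) and as the mean of 5 position bins (filled circles), with 95% counting intervals and dotted lines at 0.3 either way. Of the 10 genes Ces2c alone stays past the line after matching, at 0.94, while Ces1d moves from 0.42 to 0.06 and Ces3b from -0.34 to 0.08.

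Ces1e came closest to the limit without passing it, at 0.27 (interval 0.245 to 0.289), a value that came to 0.17 as a mean over cells and to 0.18 with cells thinned to 5000 UMIs. It was higher in Tom+ cells in 5 of 5 bins, 77.9 against 91.7 CPM in bin 1 and 78.5 against 92.7 CPM in bin 5. Ces3a (0.12), Ces1b (0.16) and Ces2a (0.09) had smaller ratios. Without the clusters that were at least 90% Tom+ they came to 0.16, -0.10 and -0.00. The direction of Ces1b thus turned, and Ces2a no longer differed. These ratios are smaller than the limit, and without a second library per group the spread between libraries is unknown.

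Among markers of other cell types, the endothelial and immune sums were lower in Tom+ than in Tom- cells in every bin. The stellate sum was higher in Tom+ cells in bin 3 (61.7 against 60.2 CPM). The cholangiocyte sum was higher in Tom+ cells in bin 2 (14.0 against 11.8 CPM) and bin 4 (4.57 against 4.11 CPM). The summed level of the 7 endothelial markers was 48.2 to 60.04 CPM over the bins in Tom- and 34.4 to 49.9 CPM in Tom+ cells, that of the 8 immune markers 152 to 213 and 112 to 171 CPM, and that of the 7 stellate markers 32.7 to 74.5 and 24.04 to 70.0 CPM. The 5 cholangiocyte markers summed to 3.94 to 14.6 and 3.36 to 14.0 CPM. Without the 4 hepatocyte clusters led by such markers (752 Tom- and 484 Tom+ cells), the ratio of Ces2c at matched position was 0.95 and Ces2c alone of the 10 genes was past log2 0.3, while Ces1b fell just under the 2-fold limit along the lobule in Tom+ cells (log2 0.99).

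The Tom+ cells were not uniform. When the hepatocytes were clustered with all Ces genes left out of the variable genes, 3 clusters were at least 90% Tom+ and held 19.5% of the Tom+ hepatocytes (1985 of 10182 cells). Cluster 6, with 1499 Tom+ and 32 Tom- cells, lay mostly in bins 3 to 5 and was led by H2-Q1, Snhg11 and Ces2c, with Dbp, a clock-controlled transcription factor, Gstm3 and Glul among its 10 leading genes. Cluster 8, with 465 Tom+ and 35 Tom- cells, lay at the portal end and was led by Orm3, Chrna4 and Grm8, with Dbp and Cyp2f2 among its 10. Cluster 15 held 22 cells. The cluster mostly of Tom- cells that was left out for few genes (4244 Tom- and 423 Tom+ cells) did not enter this clustering. With 1 library per group, a cluster mostly of 1 library cannot be told apart from a property of that library.

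These clusters held 47.1% of the Ces2c UMIs of the Tom+ hepatocytes against 19.6% of all their UMIs. This is a description, since Ces2c was known to lead such a cluster when the family was chosen. The share was 32.7% for Ces1b, 28.2% for Ces3b and 26.4% for Ces1g, and 17.4% for Ces3a and 20.1% for Ces1f. At the same position, Ces2c measured 13.1, 11.5, 47.4, 83.5 and 172 CPM from portal to central in the Tom+ cells of these clusters, 5.70, 7.92, 15.7, 24.8 and 52.5 CPM in the other Tom+ cells and 3.41, 4.34, 10.1, 20.7 and 44.1 CPM in Tom- cells outside them. Averaged over bins, Ces2c was higher than in Tom- cells by log2 1.91 in the clusters and by 0.55 in the other Tom+ cells, where the bins ran from 0.25 to 0.87.

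**Figure D4:**
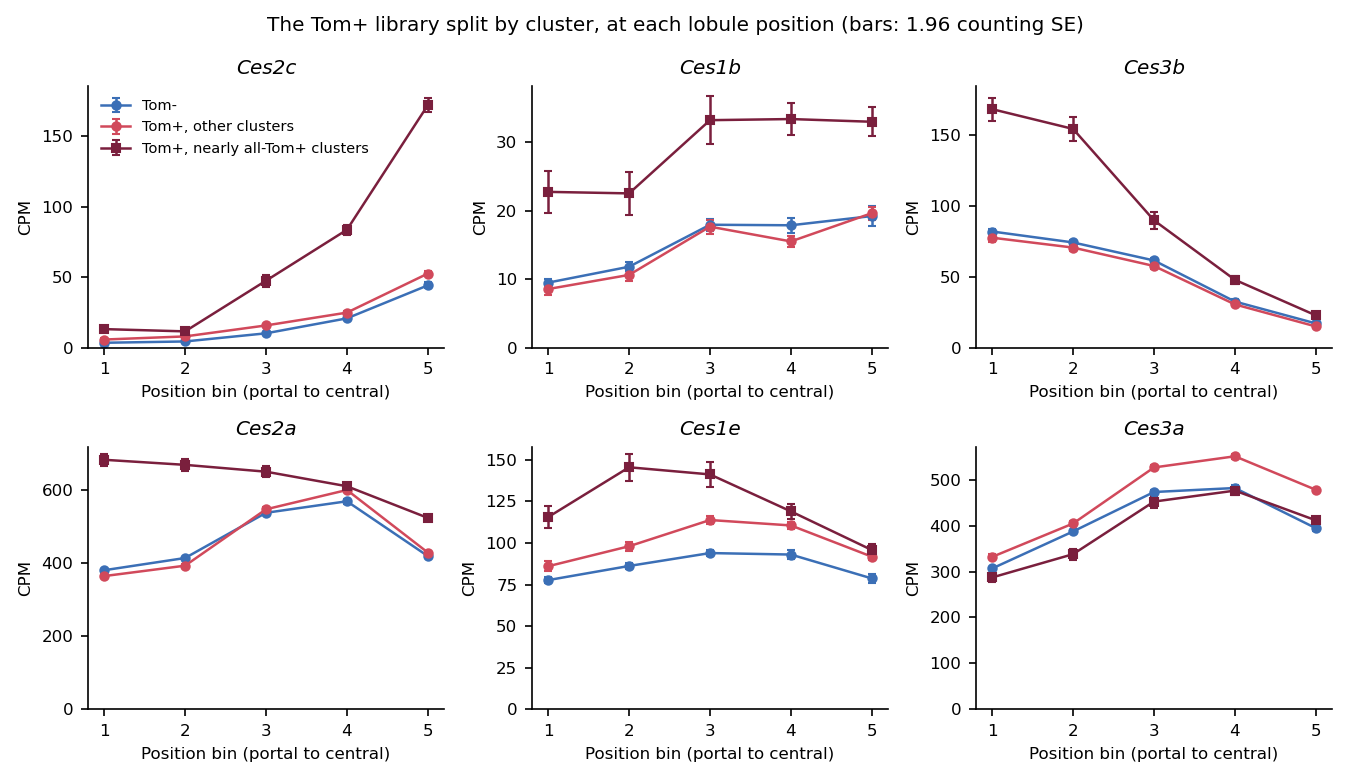
CPM (vertical axis, from 0) by position bin (horizontal axis, portal to central) in Tom- cells (blue circles), Tom+ cells outside (red circles) and Tom+ cells inside (dark squares) the clusters that are at least 90% Tom+, for 6 genes, with bars of about 95% counting error. Ces2c, Ces1b and Ces3b lie higher in the dark squares in each bin, while the red and blue lines of Ces1b, Ces3b and Ces2a run close together.

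Several genes that were not past the limit at matched position stood higher in those clusters, on average over bins Ces1b by log2 0.95, Ces3b by 0.72, Ces1e by 0.51 and Ces2a by 0.45. Ces3b measured 169 CPM in bin 1 of the clusters against 82.0 CPM in Tom- and 77.7 CPM in other Tom+ cells, and was higher than in Tom- cells in every bin, by log2 0.42 to 1.06. Ces1b was higher by 0.78 to 1.26, with 22.7 against 9.49 CPM in bin 1 and 33.0 against 19.2 CPM in bin 5. Ces2a was higher at the portal end, 683 against 381 CPM in bin 1 (log2 0.84), and hardly at all in bin 4, 611 against 570 CPM (log2 0.10).

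Ces1e was higher in each bin, by 0.28 to 0.76. The means were smaller for Ces1g (0.28), Ces1d (0.20) and Ces2e (0.18), while Ces1f (-0.05) and Ces3a (-0.06) did not stand higher. In the other Tom+ cells, the means were -0.10 for Ces1b, -0.11 for Ces3b, -0.00 for Ces2a and 0.22 for Ces1e. By cluster, Ces2c was higher than in Tom- cells by log2 1.95 to 2.24 in bins 3 to 5 of cluster 6. There Ces1g was higher by 0.36 to 0.44 and Ces2e by 0.04 to 0.53. In bins 1 and 2 of cluster 8 Ces2c was higher by 1.45 to 1.94, at 13.1 and 11.9 CPM. Ces3b was higher there by 1.03 to 1.08 and Ces2a by 0.70 to 0.84, while Ces1g gave 0.24 and -0.04 and Ces2e 0.12 and -0.07. The few Tom- cells of these clusters had Ces2c at 59.9 CPM in cluster 6 and Ces3b at 194 CPM in cluster 8.

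**Figure D5:**
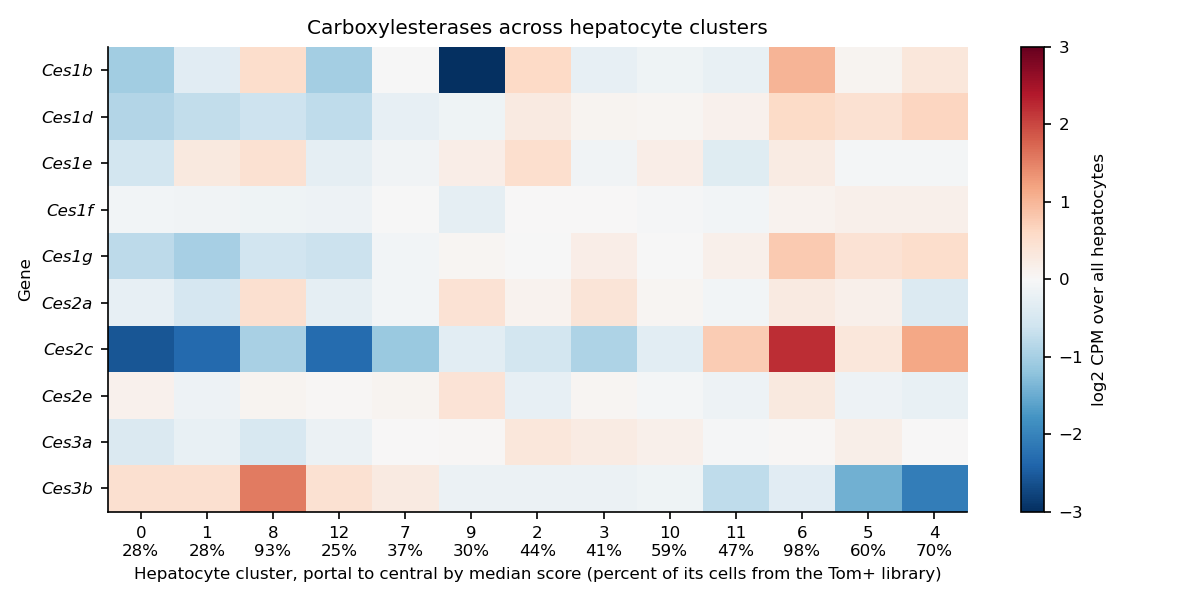
log2 of CPM in a cluster over CPM in all hepatocytes (colour) for the 10 genes (rows) in the 13 hepatocyte clusters of at least 100 cells (columns, ordered portal to central by median score, with the percent of Tom+ cells). Ces2c is highest in cluster 6 (116 CPM) and Ces3b in cluster 8 (166 CPM), the columns at 98% and 93% Tom+.

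Across the 13 clusters of at least 100 cells, Ces2c had the widest range, from 4.23 CPM in portal cluster 0 to 116 CPM in cluster 6, and Ces3b ran from 13.4 CPM in central cluster 4 to 166 CPM in cluster 8. Ces1f varied least, from 426 to 567 CPM. Ces1b was lowest, at 2.05 CPM, in cluster 9, whose leading genes Marco, Clec4f and Cd5l are those of liver macrophages, and highest, at 33.1 CPM, in cluster 6.

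Shares of cells with a UMI were compared after thinning every cell to 5000 UMIs, which left out 44 Tom- and 37 Tom+ hepatocytes. Ces2c was seen in 5.29% of Tom- (exact interval 4.89% to 5.72%) and 15.3% of Tom+ hepatocytes (14.6% to 16.0%), and unthinned in 23.996% and 49.5%. In bin 1 the thinned shares were 1.87% and 2.67%, and in bin 2 they were 2.54% and 3.34%, with overlapping intervals in both bins. In bin 5 they were 18.8% and 27.8%. In the endothelial-marker cluster, which was set aside and had Stab2 at 592 CPM, Ces2c was seen in 1.52% of 330 Tom- cells (interval 0.494% to 3.5003%) and 6.45% of 93 Tom+ cells (2.404% to 13.5%), at medians of 10351 and 7193 UMIs, against 31995.5 and 35131 in hepatocytes. The shares of bins 1 and 2 lie within these intervals in both libraries. Since that cluster also held hepatocyte RNA, the shares of these bins are not read as expression or as its absence.

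Other members were abundant in that cluster too. In the Tom- library Ces2a measured 492 CPM there against 457 CPM in hepatocytes, Ces2e 155 against 149, Ces1d 400 against 468 and Ces1f 358 against 508. Ces1b was lower there, 4.10 against 14.3 CPM. The thinned share of cells with a Ces1d UMI was 84.2% there and 86.5% in hepatocytes. Such shares cannot be read as expression, and whether free RNA or doublets gave these UMIs was not tested. Scrublet, a doublet caller, marked 1 of 20159 Tom- and none of the 13378 Tom+ cells and so did not work here, and doublets were not removed.

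With levels centred within 20 position bins, the 45 pairs had a median Pearson r of 0.03 among the 11406 Tom- and 0.07 among the 10182 Tom+ cells, which share library and depth. Ces2a with Ces2e was the highest pair in Tom- cells (0.17, and 0.17 in Tom+ cells), and Ces1g with Ces2c in Tom+ cells (0.21, against 0.03 in Tom- cells). The close pair Ces3a and Ces3b had 0.01 in each. Some counts were sparse, Ces2c having 4694 UMIs in the 11406 Tom- cells. How far counting noise lowers r was not tested, so a low r does not show that genes vary apart.

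The genes most like Ces2c and Ces1g, the members with the highest and lowest ratio at matched position, were taken by Pearson r over the 10 levels (5 bins in 2 libraries) among 5872 genes. For Ces2c these were Gstm1 (r 0.999), Sqstm1, Cldn3, Mpdu1 and Cdhr5 (0.996). Gstm1, a glutathione transferase, was higher in Tom+ cells by log2 0.57 at matched position and rose by 2.57 toward the central bin of the Tom- library. Pearson r compares shape and not size. Sqstm1, Cldn3, Mpdu1 and Cdhr5 had ratios of 0.26, 0.19, 0.10 and 0.18 and rises of 0.91, 0.75, 0.41 and 0.75, against 0.94 and 3.70 for Ces2c. For Ces1g they were Nav2, Mvk, Ephx1, Aox1 and Upb1, with r from 0.994 to 0.995. Their central rise in the Tom- library ran from 0.38 (Mvk) to 2.23 (Aox1), against 1.52 for Ces1g.

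Of the 9 other Ces genes 2 had 10 CPM or more, and Ces1c was by far the more abundant of these. Ces1c, the plasma carboxylesterase, had 2583 CPM in Tom- and 2823 CPM in Tom+ cells and a ratio of -0.07 at matched position, and Ces2g had 68.5 and 68.0 CPM and -0.04. Ces1a had 172 and 162 UMIs, Ces2h 103 and 218, Ces1h 13 and 50, Ces4a 35 and 33, and Ces2f 0 and 2, over all hepatocytes of each library. Ces5a had none in either library, which allows up to 0.0074 CPM (3 counts) in each.

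Other genes of ester and lipid hydrolysis were compared by the same rule. Of 21 such genes at 10 CPM or more, 1 was higher in Tom+ cells at matched position, Ephx2 (0.37), the soluble epoxide hydrolase, and none was lower, with Nceh1 at 0.18, Pon2 at -0.21 and lipoprotein lipase (Lpl) at -0.28. Of the 16 nuclear receptors and factors of drug and lipid metabolism, Onecut1 was higher (0.37) and the small heterodimer partner Nr0b2 lower (-0.38), with Ahr at 0.27 and Nr3c1 at -0.15. The xenobiotic receptor CAR (Nr1i3) had a central rise of log2 3.76 in Tom- cells and a ratio of 0.00 at matched position, a mean over bins that ran from -0.46 to 0.28.

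None of 11 CAR and PXR target genes passed in either direction, with Cyp2c55 at 0.23, Alas1 at 0.22, Cyp3a11 at -0.14 and Cyp2b9 at -0.24. None of 9 genes of lipoprotein assembly and lipid droplets did so either, with Dgat2 at 0.17, Soat2 at 0.09, Tm6sf2 at -0.08 and Plin5 at -0.12. The medians of these lists lay between -0.03 and 0.04, against -0.00 for all genes. Over all 7808 genes compared 2.69% were higher and 0.589% lower at this limit, so nothing is read from the counts of these short lists.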

How the data were processed

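The authors hybridised probe pairs to fixed RNA (10x Fixed RNA, mm10, with 3 tdTomato probe pairs added) and counted with Cell Ranger 7.2.0, and each deposited matrix gives unnormalised UMI counts for genes by cells. Cells with a mitochondrial fraction of at most 0.05, 2000 to 10000 genes and at most 100000 UMIs were kept (20159 Tom- and 13378 Tom+ cells). They were scaled to 10000 and clustered with scanpy 1.11.5 (2000 variable genes without Ces genes, 30 components, 20 neighbours, Leiden resolution 0.8). Hepatocytes were the clusters that remained once 2 kinds had been removed, those whose median number of genes was below 0.75 of the overall median and those in which Pecam1, Ptprc or Dcn reached 2.5 times its median level over clusters. The position score is C/(C + P), with C and P the mean relative levels of the central and portal markers, cut into 5 bins with both libraries weighted equally. CPM comes from summed counts, with a pseudocount of 0.5 UMIs in ratios at matched position. Genes at 10 CPM or more and 20 UMIs were compared. Ratio intervals are exact conditional ones within a bin and normal approximations for the mean over bins, at 95%, and cover counting error only. Each group has 1 library, so no test was made. In simulated counts of 7808 genes, 100% of genes changed by log2 0.5 and 0% of unchanged genes passed log2 0.3, a check of the calculation under counting noise only, which says nothing of the spread between libraries. Coding sequences came from GENCODE M21 and were aligned with Biopython 1.88. Identity was computed on coding bases, since no protein table was used here.

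The 10 genes, the gene and marker lists, the motifs and the rule for named genes (all 10 members, all other Ces genes, and the 2 highest and 2 lowest ratios of each other list) were chosen with earlier results of these data known. The CAR gene Nr1i3, Glul, Cyp2e1 and Alb were named outside that rule, after their values were seen.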

Additional observations from a re-analysis of the deposited data

Results flagged for a closer look

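For 3 genes the ratio had opposite signs at the ends of the lobule, and for 1 of them, Ces1g, the counting intervals left out 0 at both ends. Ces1g, a triacylglycerol hydrolase, was lower in Tom+ than in Tom- cells in the portal bin, by 0.18 on the log2 scale (log2 -0.18, 97.2 against 110 CPM), and higher in the central bin, at log2 0.052 (327 against 316 CPM). The bins between gave -0.26, -0.03 and -0.01. The difference between the ends was not tested, since each group has 1 library. In the Tom+ cells outside the clusters that are at least 90% Tom+, Ces1g was lower than in Tom- cells in each bin, by log2 -0.30 to -0.07. Ces2e went from -0.04 to 0.10 and Ces3b from 0.21 to -0.03, each with an interval that includes 0 at one end.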

How the results depend on the processing

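The ratios and gradients of the 10 genes were recomputed under 25 alternative settings, 1 of them, leaving out the clusters led by markers of other cell types, chosen after seeing the data. Of 750 values 720 kept their sign and no gene past its limit changed sign. Ces2c stayed past log2 0.3 in all 25, from 0.56 without the clusters that are at least 90% Tom+ to 1.07. These are means over bins. In the Tom+ cells outside those clusters, bins 4 and 5 of the main setting gave 0.26 and 0.25, under that limit. Without those clusters Ces1b (-0.10), Ces2a (-0.00) and Ces3b (-0.11) changed sign. Ces1b was 2-fold along the lobule under 19 of the 25 settings in Tom- and 14 in Tom+ cells. At matched position Ces2c, at 1.92-fold, would not pass a limit of 2-fold. Along the lobule Ces2c and Ces3b were past 4-fold in each library, and Ces1g, Ces1d and Ces1b were not. The share of all genes past log2 0.3 was 3.28%, and 17.4% with no CPM minimum. No paired analysis was possible because only a single library was made for Tom- and for Tom+ cells. Depth limits the precision of low genes such as Ces2c in the portal bin, at 3.42 CPM in Tom- cells.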
